A study of Mus musculus with 4 samples.

Results

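Trimethylation of lysine 4 on histone H3 (H3K4me3) was mapped by chromatin immunoprecipitation and sequencing in the cerebral cortex, left side, of mice of the hybrid strain B6CASTF1/J, all female, the F1 offspring of a cross between C57BL/6J and CAST/EiJ, at an age of 2 months. Of the 4 libraries, 2 came from pool J, numbered biological replicate 1, and 2 from pool I, numbered 2, as technical replicates, and each pool combined 4 cortex biosamples under 1 donor record. No treatment or other genotype was named, so the pools differed only in their biosamples, as far as the labels say. The peaks described here are those of the replicated list that lay in intergenic sequence far from coding genes: they overlapped no gene body of any biotype in GENCODE release M21, met no window of 1000 bases either side of any transcript start, and lay over 50 kb from the nearest protein-coding transcript start. This held for 1361 of the 25446 replicated peaks, or 5.35%, and these are called members below.

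H3K4me3 is deposited around transcription start sites of active and poised genes. It is strongest where unmethylated CpG-rich DNA, a CpG island, recruits the methyltransferase complexes through their CXXC zinc finger domains. Enhancers usually carry more of the monomethylated form, H3K4me1, and little H3K4me3. Peaks of H3K4me3 away from annotated starts are known to include promoters that an annotation lacks, CpG islands with no annotated gene, and some highly active enhancers. The lists of peaks alone do not tell these apart.

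The label of the tissue was checked on promoters. All 8 of 8 marker genes of cortical excitatory neurons had a replicated peak at a start, as did 2 of 9 genes of other tissues and brain regions, Actn3 and Gbx2, and 64.9% of all coding genes. Peaks are deposited as 1 list per pool, 1 of the pooled reads and 1 replicated list, with no read numbers, so the depth was unknown. Enrichment is the authors' value for each peak, read here as fold over control. In bulk tissue, few cells with much of the mark and many cells with little of it cannot be told apart.

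Members were narrow and weak beside promoter peaks. Their median width was 487 bases (quartiles 334 and 724) and their median enrichment was 4.12 (3.23 and 5.79). Peaks in start windows had medians of 1683.5 bases and 17.5-fold. The 1585 intergenic peaks at 5 to 50 kb from a coding start had values much nearer those of the members, with 540 bases and 4.77-fold. Peaks in gene bodies outside start windows had 483 bases and 3.57-fold. The range among members was wide, however, from 1.80-fold to 27.7-fold and from 188 to 4166 bases, and the strongest member stood at percentile 91.9 of all replicated peaks by enrichment.

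The sequence under the highest members shows what kind of DNA carried the mark. The first set below gives 300 bases around the summit of the 3 members of highest enrichment with a CpG island, and the second set gives the same for the 3 of highest enrichment without one, in both cases among members of unique sequence. All are read from the plus strand of GRCm38.p6 (mm10) in lower case, with each CpG dinucleotide in capitals. An island is defined here as at least 200 bases within the peak with at least 50% GC and an observed-to-expected CpG ratio of at least 0.6. For a peak shorter than 200 bases, the window of 200 bases centred on it was tested instead.
Between Dnajc1 and Commd3, chr2:18587273-18587572: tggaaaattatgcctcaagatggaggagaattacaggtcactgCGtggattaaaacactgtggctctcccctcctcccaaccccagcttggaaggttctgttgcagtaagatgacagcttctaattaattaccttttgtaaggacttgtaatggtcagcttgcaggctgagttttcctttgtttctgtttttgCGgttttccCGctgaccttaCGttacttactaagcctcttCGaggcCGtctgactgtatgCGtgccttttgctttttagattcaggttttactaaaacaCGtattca
Between Spag6 and Pip4k2a, chr2:18767125-18767424: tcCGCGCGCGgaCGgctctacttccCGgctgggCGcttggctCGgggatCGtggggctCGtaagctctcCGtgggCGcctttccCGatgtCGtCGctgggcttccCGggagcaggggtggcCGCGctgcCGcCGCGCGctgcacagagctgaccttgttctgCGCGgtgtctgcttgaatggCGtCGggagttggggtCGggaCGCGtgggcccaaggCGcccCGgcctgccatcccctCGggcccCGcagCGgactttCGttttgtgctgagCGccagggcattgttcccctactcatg
Between Barx2 and Arhgap32, chr9:32032838-32033137: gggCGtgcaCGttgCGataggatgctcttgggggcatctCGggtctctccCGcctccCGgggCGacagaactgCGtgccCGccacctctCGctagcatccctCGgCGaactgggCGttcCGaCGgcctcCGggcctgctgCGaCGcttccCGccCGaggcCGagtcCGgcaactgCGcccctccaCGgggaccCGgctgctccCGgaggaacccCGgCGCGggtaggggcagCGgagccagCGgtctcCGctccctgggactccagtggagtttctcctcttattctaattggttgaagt
Without a CpG island, the 3 windows came from members that were still far above the median enrichment.
Between Cxxc4 and Tacr3, chr3:134302849-134303148: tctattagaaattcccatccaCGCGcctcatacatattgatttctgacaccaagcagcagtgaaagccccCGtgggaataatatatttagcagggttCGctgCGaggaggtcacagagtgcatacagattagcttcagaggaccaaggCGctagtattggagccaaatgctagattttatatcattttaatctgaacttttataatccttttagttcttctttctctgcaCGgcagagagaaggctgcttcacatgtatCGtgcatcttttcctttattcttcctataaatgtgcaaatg
Between Unc5d and Dusp26, chr8:31033193-31033492: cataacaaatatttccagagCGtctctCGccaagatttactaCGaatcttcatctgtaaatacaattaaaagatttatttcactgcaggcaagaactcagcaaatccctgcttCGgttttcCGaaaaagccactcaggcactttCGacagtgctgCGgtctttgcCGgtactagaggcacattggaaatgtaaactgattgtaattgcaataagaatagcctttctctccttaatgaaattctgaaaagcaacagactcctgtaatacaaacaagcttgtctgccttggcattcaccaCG
Between Rnf24 and Smox, chr2:131423086-131423385: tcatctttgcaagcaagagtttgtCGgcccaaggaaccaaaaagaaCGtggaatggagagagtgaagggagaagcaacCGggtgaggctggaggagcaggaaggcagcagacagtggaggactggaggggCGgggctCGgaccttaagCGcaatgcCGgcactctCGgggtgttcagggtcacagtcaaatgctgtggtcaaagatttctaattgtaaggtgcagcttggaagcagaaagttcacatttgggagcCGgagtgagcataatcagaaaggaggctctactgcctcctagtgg

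The windows differed in CpG number. Those beside Pip4k2a and Arhgap32 held 36 and 32 CpG dinucleotides at 70.0% and 69.0% GC, and their CpG ratios were 0.982 and 0.898. The window between Dnajc1 and Commd3 held only 8 at 43.7% GC, although its peak as a whole held an island. The windows without an island held 8, 9 and 9 at 41.3%, 40.7% and 53.7% GC. Their CpG ratios were 0.626 (Cxxc4 to Tacr3), 0.746 (Unc5d to Dusp26) and 0.459 (Rnf24 to Smox). The Dnajc1 to Commd3 window had a ratio of 0.560, below those of the Cxxc4 to Tacr3 and Unc5d to Dusp26 windows. The windows were chosen by enrichment, so these examples cannot show whether enrichment followed CpG number. The Dnajc1 to Commd3 member reached 24.1 (pool J) and 28.9 (pool I). The Spag6 to Pip4k2a member reached 28.9 and 22.7, and the Barx2 to Arhgap32 member 24.95 and 24.0. The member between Cxxc4 and Tacr3 reached 15.9 (pool J) and 13.9 (pool I), that between Unc5d and Dusp26 reached 13.0 and 15.7, and that between Rnf24 and Smox reached 14.2 and 13.3.

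Over all members, 609 of 1361 held a CpG island, a share of 44.7% (95% Wilson interval 42.1 to 47.4). The share was 58.4% (55.9 to 60.8) at 5 to 50 kb and 87.1% in start windows. A wider peak has more room for an island, so the share was also taken in the fixed window of 300 bases around each summit. It was then 32.8% (30.3 to 35.3) for members, 45.5% (43.0 to 47.9) at 5 to 50 kb and 78.2% (77.6 to 78.8) in start windows. Of the 2903907 windows of 300 bases that tile the sequence where a member could lie, called eligible sequence here, 1.01% held an island. The median CpG ratio was 0.503 at member summits and 0.125 over these tiles, and median GC content was 49.0% and 39.3%. By the stricter definition of at least 500 bases, 55% GC and a ratio of 0.65, 101 members held an island, or 7.42%. Peaks shorter than 500 bases were tested there in the window of 500 bases centred on them, which reaches beyond the peak.

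Members with an island were stronger and found more often in both pools. Their median enrichment was 5.07 (quartiles 3.74 and 7.94), against 3.64 (3.03 and 4.83) for the 752 members without one, and their median width was 629 bases against 401.5. Peaks of both pools were met by 76.5% of members with an island and 44.4% of those without. The same order held within each pool: 5.78 with an island and 4.39 without in pool J, and 5.57 and 4.18 in pool I. Of the 239 members under 3-fold, 25.5% held an island, and the share was 37.5% from 3 to 5, 56.9% from 5 to 10 and 87.4% (79.2 to 92.6) from 10 to 20. All 11 members at 20-fold or more held one. Median width rose along these ranges as well, from 327 to 1937 bases, and its part in the island share was not tested. With peaks as units that share 2 pools, these shares describe the list and carry no test.

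**Figure D1:**
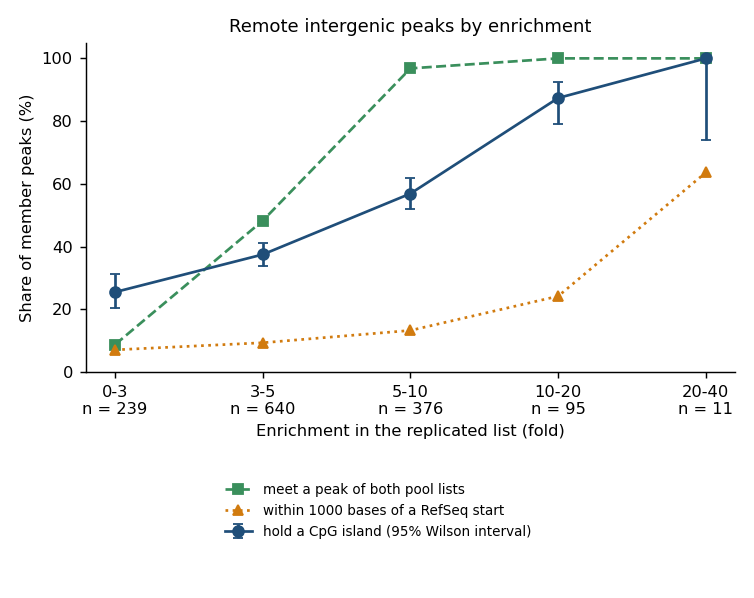
Share of members (y axis, %) that hold a CpG island, meet a peak of both pool lists, or lie within 1000 bases of a RefSeq start, by range of enrichment in the replicated list (x axis, fold), with the number of members under each range. The share with an island climbs from 25.5% to 100%, and from 5-fold upward at least 96.8% of members met a peak of both pools.

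The pools were set side by side, since each gave 1 list and no test between them was possible. The rule found 882 members in the list of pool J and 1258 in that of pool I, for a mean ± SD of 1070 ± 265.9 over n = 2 pools, and pool I had 1.43 times as many. For start-window peaks the same ratio was 1.05, and for intergenic peaks at 5 to 50 kb it was 1.26. Median enrichment of the members was 4.95 for pool J and 4.75 for pool I, or 4.85 ± 0.141 (mean ± SD, n = 2 pools), and median width was 574.5 and 562 bases. The share with an island was 53.6% in the list of pool J and 47.4% in the longer one of pool I.

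Most members of the replicated list were also called in a pool by itself. A pool J peak was met, by at least 1 base, by 858 members, or 63.0% (60.4 to 65.6), where 82.5% of all replicated peaks met one. A pool I peak was met by 1096, or 80.5% (78.3 to 82.5), against 90.7% of all. Peaks of both pools were met by 800 members, or 58.8% (56.1 to 61.4), against 80.1% of all. At 5 to 50 kb the share that met both was 66.5% (64.1 to 68.8). A −log10 q of at least 10 was reached by 581 members, or 42.7% (40.1 to 45.3), against 71.4% of all replicated peaks. The members thus lay below the list as a whole on each of these 4 counts, but 68.6% of that list were start-window peaks. Peaks in gene bodies lay lower than the members on all 4, with 54.8% (pool J), 76.2% (pool I), 49.6% (both) and 29.9% (−log10 q).

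The 207 members that met neither pool list had a median enrichment of 2.83 and a median width of 268 bases, and those that met both had 5.42 and 642.5. Pool I alone was met by 296 members and pool J alone by 58. Among the 800 members called in both, median enrichment was 5.16 (pool J) and 5.92 (pool I). Enrichment in pool I over that in pool J had a median of 1.13 (quartiles 0.961 and 1.34), 568 of the 800 were higher in pool I, and 87.1% differed by less than 1.5-fold. The tilt to pool I was not particular to members. At 5 to 50 kb the median ratio was 1.105, with 712 of 1054 peaks higher in pool I and 89.3% within 1.5-fold. In start windows it was 1.03, with 9333 of 15976 and 93.55%. The rank order was shared, with a Spearman correlation of 0.782 over the 800 members, where all points come from the same 2 pools and no p-value applies. At 5 to 50 kb the correlation was 0.870 over 1054 peaks.

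**Figure D2:**
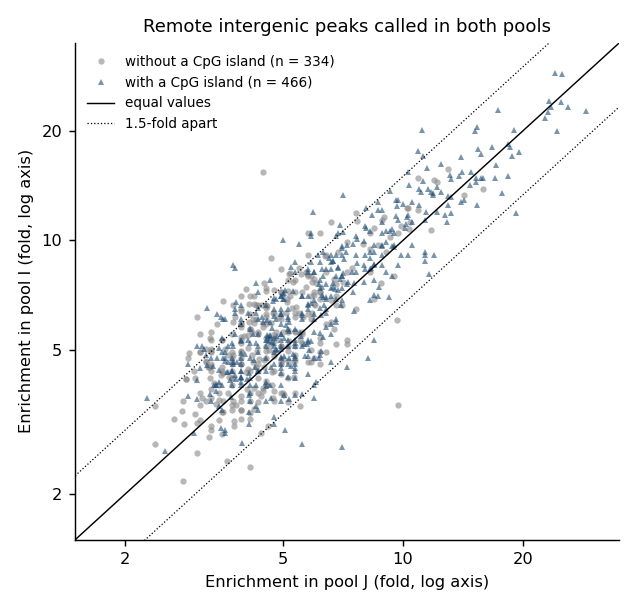
Enrichment of the 800 members that met peaks of both pools, pool J on the x axis and pool I on the y axis (fold, log axes), each point 1 member. Points run along the line of equal values, with 87.1% inside the dotted lines at 1.5-fold, and the members above 20-fold in both pools all hold a CpG island.

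The strongest members called in only 1 pool were modest. Between Gm5415 and Prim2, chr1:33271566-33272035 had 6.33 in pool I and no pool J peak. The members beside Csnk1g3 and Sorcs1 each had 6.46 in pool I and none in pool J. Conversely, chr16:65629409-65629749 near Chmp2b had 4.19 and chr1:35849855-35850348 near Hs6st1 had 4.95 in pool J, both without a pool I peak. The strongest member without a pool I peak, chr7:60622863-60623118 between Snrpn and Ndn, had 5.07 in the replicated list and no peak of its own in either pool.

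A second annotation was consulted for starts that the first lacks. RefSeq (annotation of GRCm38.p6) placed a transcript start within 1000 bases of 157 members, or 11.5% (9.95 to 13.3), and 192 others lay in a RefSeq gene body away from a start. The remaining 1012 members, 74.4%, touched neither. Of the 157, 19 lay at an mRNA start, 132 at a long non-coding RNA start with no mRNA start, and 6 at other starts. Median enrichment was 11.1 for the 19 (quartiles 8.74 and 17.5), 4.74 for the other 138, 3.99 in gene bodies and 4.05 for members with neither. Members at a RefSeq start made up 7.11% of those under 3-fold and 63.6% of those at 20-fold or more.

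Of the 19 members at RefSeq mRNA starts, 5 belonged to genes that GENCODE does not list as coding. The other 14 belonged to genes it annotates as coding, whose nearest coding transcript start lay 51211 to 724118 bases away. Arhgap32, which encodes a GTPase-activating protein of neurons, had 3 of them. The strongest of these was the member whose sequence is printed above, 81468 bases from the GENCODE start. A second one 287 bases away had 14.1 (pool J) and 15.4 (pool I), and the other had 3.29 and 4.96. Tln2, for talin 2, which ties integrins to actin, had a member of 2709 bases at chr9:67632080-67634788 with 23.3 (pool J) and 24.2 (pool I). Dtna, for the dystrophin-associated protein α-dystrobrevin, had 26.1 and 23.3.

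Genes of axon guidance, ion channels and the dystrophin complex were among them. Robo1 and Robo2 encode receptors for Slit guidance cues. The Robo1 member had 5.93 (pool J) and 11.97 (pool I), a gap of over 1.5-fold, and the Robo2 member, 3684 bases wide, had 11.8 and 10.7. Cacna1a, the pore subunit of P/Q-type calcium channels, had 7.21 and 9.28. Dmd, for dystrophin, a gene known to have a promoter of its own for cortical neurons, had a member of 3372 bases at chrX:82814249-82817620, 131283 bases from the nearest GENCODE coding start, with 8.25 (pool J) and 9.49 (pool I). Pcdh15, an adhesion gene of the protocadherin family, had 11.6 and 8.10. The Robo2 and Dmd members held no CpG island, with summit CpG ratios of 0.342 and 0.174, whereas 14 of the 19 did.

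The member of highest enrichment lay in a zinc finger gene cluster on chromosome 5, at chr5:104570830-104572596 between BC005561 and Zfp951, with 25.2 (pool J) and 28.7 (pool I). RefSeq has the start of Zfp33b there. KRAB zinc finger genes, which encode repressors of retroelements, lie in clusters of similar copies, and of the 36-base words in this summit window 66.0% occurred once in the genome. Similar loci were AB010352 on the same chromosome, with 18.4 in each pool, Gm51425 with 14.02 and 12.7, and a member with no RefSeq start between Zfp943 and Zfp947, at chr17:22080116-22081655, with 23.1 and 22.6. In these clusters reads from near-identical copies may be shared between loci.

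Of the 10 strongest members, 4 had a RefSeq mRNA start within 1000 bases, 1 a long non-coding RNA start, 1 a tRNA gene, and 4 none. The tRNA gene, for asparagine, lay at the Dnajc1 to Commd3 member. Without any RefSeq start stood the member between Spag6 and Pip4k2a, the Zfp943 to Zfp947 member, and chr15:81522057-81524139 between Rbx1 and Ep300, with 24.4 (pool J) and 20.1 (pool I). The last of these 4 lay 79990 bases from Smad2, a gene of TGF-β signalling, with 22.7 and 21.7. The long non-coding start was that of Gm34507, 85923 bases from Arid1b, a subunit gene of the BAF chromatin remodelling complex, with 23.5 and 23.3.

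The widest members had other neighbours. The widest of all covered 4166 bases at chr14:64573670-64577835 between Msra and Kif13b, with 11.96 (pool J) and 14.6 (pool I). The nearest annotated start was that of Mir124a-1hg, 9496 bases away, a host transcript of miR-124, which is the most familiar microRNA of neurons. It held no CpG island. The fifth widest, 3105 bases at chr3:17784050-17787154, lay 2767 bases from the start of Mir124-2hg, another miR-124 host, with 14.8 (pool J) and 15.4 (pool I). The Robo2 and Dmd members came between, together with 3236 bases at chr13:84347027-84350262 between Tmem161b and Ccnh, with 13.8 and 15.01. The Mir124-2hg member spanned 2518 bases (pool J) and 3686 (pool I), the largest difference in width among these 5, and the widest member spanned 4011 and 4286.

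The rule keeps coding starts over 50 kb away but other starts only 1000 bases away, so it largely fixes that the nearest annotated start is non-coding, and the following counts are a description. The nearest start of any biotype was that of a lincRNA for 425 members (31.2%), at a median of 25137 bases, of a processed pseudogene for 411 (30.2%), of a coding gene for 151 (11.1%) and of a microRNA gene for 65. Pseudogenes and small RNA genes are spread throughout intergenic sequence. When only coding and long non-coding RNA genes were counted, the nearest start was non-coding for 62.5%, against 88.9% over all biotypes. The nearest coding gene had itself a replicated peak at a start for 1146 members, or 84.2% (82.2 to 86.0), and for 81.3% (79.3 to 83.1) of the peaks at 5 to 50 kb. For peaks in gene bodies it was 88.6%. These are shares of peaks, in which a gene nearest to several peaks counts for each of them, and the members had 898 nearest coding genes. Of all coding genes, as a share of genes, 64.9% had one.

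Members thinned out with distance. From 50 to 100 kb there were 550 members in 175.5 Mb of eligible sequence, or 3.13 per Mb (95% Poisson interval 2.88 to 3.41, counting error only). The density was 2.00 at 100 to 200 kb, 1.19 at 200 to 500 kb, 0.503 at 500 to 1000 kb and 0.141 (0.0676 to 0.259) beyond 1000 kb. From 5 to 10 kb it was 4.31 and from 10 to 25 kb 4.499, with intervals that overlap. The fall was seen in each pool, from 2.17 at 50 to 100 kb to 0.0846 beyond 1000 kb in pool J and from 2.91 to 0.113 in pool I. Members with an island thinned out from 1.64 per Mb at 50 to 100 kb to 0.0955 at 500 to 1000 kb, and those without from 1.49 to 0.407, so the island share was 52.4% (48.2 to 56.5) in the first of these ranges and 18.99% (11.9 to 28.99) in the other. Median enrichment moved little, from 4.36 to 3.69.

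**Figure D3:**
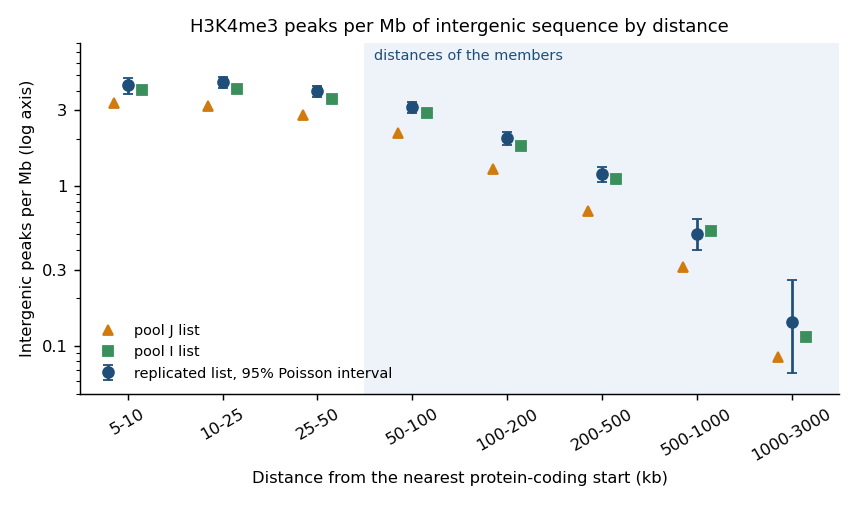
Intergenic peaks per Mb of sequence (y axis, log scale) by distance from the nearest protein-coding start (x axis, kb), for the replicated list with 95% Poisson intervals and for each pool list. The shaded distances are those of the members, where the density drops from 3.13 to 0.141 per Mb.

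The limit of 50 kb cut through a continuum. Members just over it were 50017 bases from Hey1 with 4.53-fold and 50102 bases from Tob1 with 3.75-fold. Just under it stood peaks of 2.56-fold at 50000 bases from Melk, 6.10-fold at 49987 bases from Ercc4 and 4.15-fold at 49859 bases from Jrkl. At the other end, the farthest member lay 2194521 bases from Pik3c3, a lipid kinase gene, with 7.43 (pool J) and 8.16 (pool I) and an island. The next, chr4:78606271-78606892, lay 2011972 bases from Ptprd, which encodes a receptor phosphatase of synapses, and had an island too, with 7.01 (pool J) and 2.70 (pool I). The other 3 of the 5 farthest had 2.83 to 3.54-fold, no island and no pool J peak.

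Eligible sequence came to 874.8 Mb on chromosomes 1 to 19 and X, 34.2% of their length, and members covered 806.8 kb of it, or 0.0922%. Their density was 1.56 per Mb (1.47 to 1.64). Among autosomes it ran from 1.10 (0.617 to 1.82) on chromosome 19 to 2.30 (1.86 to 2.81) on chromosome 10. By density, chromosome X stood apart with 33 members in 74.3 Mb, or 0.444 per Mb (0.306 to 0.624). Its interval did not overlap that of any autosome except chromosome 19, whose lower bound is 0.617. Both pools showed the low density, with 0.404 (pool J) and 0.471 (pool I). Autosomes ran from 0.514 to 1.56 in pool J and from 1.21 to 2.08 in pool I. As a share of all replicated peaks of the chromosome, X did not stand apart. Members were 4.18% of its 789 peaks, and 1.88% (chromosome 19) to 9.17% (chromosome 18) of those of autosomes. The members on X were not weak, with a median enrichment of 6.14, above that of each autosome. No member lay on Y in these female mice.

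**Figure D4:**
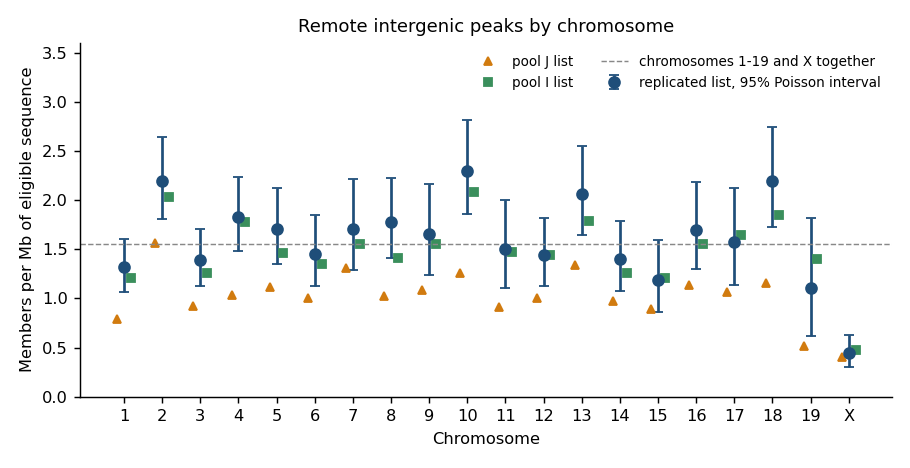
Members per Mb of eligible sequence (y axis) by chromosome (x axis), for the replicated list with 95% Poisson intervals and for each pool list, with the value over chromosomes 1 to 19 and X dashed at 1.56. Chromosome X is lowest in all 3 lists, at 0.444 in the replicated one.

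Some intervals between coding genes held many members. The 1361 members fell into 798 intervals, of which 515 held 1 member and 31 held 5 or more, with 209 members in those 31. The interval from Tmem182 to Pou3f3, a POU-domain transcription factor gene of upper-layer neurons, held 14 over 1890.2 kb, with 2.07 to 8.99-fold. Of these 7 met a pool J peak and 13 a pool I peak. Kif2a to Smim15 held 11, Tmem161b to Ccnh 10, and Gm11146 to Cxadr 9. Between Snrpn and Ndn, both imprinted genes expressed from the paternal copy, lay 9 members with 2.41 to 13.6-fold, of which 4 met a pool J peak, 8 a pool I peak, and 1 held an island.

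By nearest coding start, Tmem182 had most members with 10, then Snrpn, Adgrl2 and Kif2a with 9 each and Vrk1 with 8. Adgrl2 encodes latrophilin 2, an adhesion receptor of synapses, and its members lay 84319 to 854428 bases away with 2.42 to 10.7-fold. Kif2a encodes a kinesin that shortens microtubules. Vrk1, a kinase gene, differed from the others in that all 8 of its members held an island, with 2.48 to 10.2-fold. The count depends on how much intergenic sequence a gene borders, which was not corrected for.

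Distances between members were counted as well. Within 10 kb of another lay 246 members, or 18.1% (16.1 to 20.2), and the median gap to the next was 156277 bases. The share expected from an even spread at the members' density was not computed, so these values do not say whether members cluster. There were 110 groups of more than 1 member. The largest had 6 within chr13:84750438-84761928 between Tmem161b and Ccnh, with 2.29 to 5.07-fold and no island. The second had 5 within chr1:55888827-55897630 between Plcl1 and Hsfy2, with 2.75 to 8.04-fold. Its leftmost pair met the same pool J peak but separate pool I peaks, and its rightmost pair met the same pool I peak. Members counted singly here can thus be parts of 1 broader peak of a pool list. When members up to 1000 bases apart were merged, 1290 remained. Groups of 4 had Zbtb10, Meis2 and Mpdz as their nearest coding genes. The 4 nearest to Meis2, a homeobox gene, all held an island, with 3.36 to 9.19-fold. The 4 nearest to Mpdz, which encodes a multi-PDZ scaffold protein, had 1.94 to 4.32-fold, and 1 of them met a pool J peak. Grouped members were no stronger than the rest, with a median of 4.15-fold.

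Members near transcription factor genes of neural development were counted with a list of such genes. Of 66 such genes, 0.301% of coding genes, 25 were the nearest coding gene of 51 members, or 3.75% (2.86 to 4.89), against 1.89% (1.33 to 2.69) of the peaks at 5 to 50 kb. The members near Klf7 numbered 5 with 2.23 to 3.85-fold, and none of them met a peak of either pool list. Those near Meis2, Pou3f3 and Tcf4 numbered 4 each, and those near Dlx2, Myt1l, Tshz3 and Zeb2 numbered 3 each. The Dlx2 members, beside a gene of inhibitory interneuron fate, had 4.14 to 12.1-fold and those of Myt1l, a repressor of non-neuronal genes, 4.91 to 10.2. The list's median was 3.85-fold, against 4.12 for all members. The list does not account for the long intergenic stretches around such genes, and no test was made.

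Adhesion and guidance genes, a list of 80 or 0.36% of coding genes, were nearest to 23 members, or 1.69% (1.13 to 2.52). They were nearest to 0.252% (0.0982 to 0.647) of peaks at 5 to 50 kb. These 23 were spread over 20 genes. The strongest was that of Robo1 with 11.0-fold in the replicated list, followed by Cdh6 with 9.67 and Cdh10 with 8.14, both genes of classical cadherins. Their median was 3.44-fold. Channel, receptor and neuropeptide genes, a list of 50 or 0.228% of coding genes, were nearest to 5 members, or 0.367% (0.157 to 0.857). These had a median of 2.47-fold, and the share of the nearer peaks was 0.252%. The 5 were near Gabra2, with 2 members, Chrm2, Cnr1 and Kcnj3. For both lists, the length of intergenic sequence around the genes was not accounted for, and no test was made.

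Elements with an annotated regulatory role overlapped 19 members, or 1.40% (0.895 to 2.17). The share was higher at 5 to 50 kb, with 2.27% (1.645 to 3.13), and was 1.15% in gene bodies and 0.43% in start windows. RefSeq lists 183 such elements wholly inside eligible sequence and 16 of them, 8.74% (5.45 to 13.7), were met by a member. The members overlapped 17 elements in all, 1 of which was not wholly in eligible sequence, and 18 of the 19 members lay in elements of the VISTA collection, in which a sequence is tested with a reporter in mouse embryos. Of 41 elements with reported forebrain activity 5 were met, or 12.2% (5.32 to 25.5), and of the other 142, 11, or 7.75% (4.38 to 13.3), so the intervals overlapped. The strongest such member, chr3:9346494-9347790 between Zbtb10 and Zfp704, had 13.2 (pool J) and 11.9 (pool I), and its element is listed for hindbrain and midbrain. Next came chr16:21310557-21311345 between Ephb3 and Vps8, with 12.9 and 11.2. Among those listed for forebrain, chr14:105483070-105483760 between Ndfip2 and Spry2 had 8.46 and 7.07, and chr8:126665611-126666245 near Irf2bp2 had 4.28 and 6.33.

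Motifs were counted in the 300 bases around each summit, on both strands, beside the eligible tiles. The GC box GGGCGG, which binds SP factors, was found in 18.7% of members (16.7 to 20.9) and in 1.66% of tiles. It was in 27.8% (24.3 to 31.4) of members with an island and 11.4% (9.36 to 13.9) of those without. The ETS word CCGGAAG was in 3.82% of members and 0.592% of tiles, and the NRF1 word GCGCATGC in 1.25% and 0.178%. Each of these words holds CpG, and CpG is commoner at members than in tiles, as given above, and its part in these shares was not tested. In start windows the GC box was in 48.4% and the ETS word in 7.40%.

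The CRE half-site TGACGT, bound by CREB, was in 7.31% (5.66 to 9.40) of members without an island. It was in 3.94% (2.66 to 5.797) of those with one and in 1.74% of tiles. This word holds CpG too, and its part was not tested. The median CpG ratio was 0.425 at members without an island and 0.125 in tiles. A CTCF consensus, searched with ambiguity letters, was in 17 members, or 1.25% (0.781 to 1.99), in 1.58% (1.07 to 2.32) of the intergenic peaks at 5 to 50 kb, in 0.206% (0.149 to 0.285) of start-window peaks and in 0.0767% of tiles. Of the 17, 14 held no island. They were narrow, with a median of 339 bases, and had a median of 4.31-fold. The member of highest enrichment with a CTCF match had 8.46 (pool J) and 6.88 (pool I), and its window is shown as an example of a match in a member without an island. The capitals mark the match, which straddles the start of the peak, at position 159396615, and so lies away from the summit (plus strand, mm10).
Between Cop1 and Tnr, chr1:159396585-159396884: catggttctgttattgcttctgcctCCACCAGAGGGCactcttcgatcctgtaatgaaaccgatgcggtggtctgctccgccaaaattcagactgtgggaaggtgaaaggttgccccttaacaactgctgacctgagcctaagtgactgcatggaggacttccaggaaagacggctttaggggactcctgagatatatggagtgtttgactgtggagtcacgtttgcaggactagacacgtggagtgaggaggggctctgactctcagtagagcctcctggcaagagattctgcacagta
AP-1 (TGANTCA), the E-box CAGATG of neuronal bHLH factors and MEF2 (CTAAAAATA) were found in 7.79% (6.48 to 9.33), 21.8% (19.7 to 24.1) and 1.32% (0.838 to 2.08) of members, against 8.93%, 21.4% and 0.847% of tiles, so the tile share lay inside the members' interval for each of them. Split by island, MEF2 was in 13 members without one, or 1.73% (1.01 to 2.935), an interval above the tile share. With an island the share was 0.821% (0.351 to 1.91). The NFY core CCAAT and TATAAA were rarer at members than in tiles, with 28.4% against 44.7% and 14.7% against 31.4%. In start windows they were rarer still, with 18.7% and 4.025%. Median GC content was 39.3% in tiles, 49.0% at members and 64.7% in start windows. The part of GC content in the motif shares, that of CTCF included, was not tested. No member window had the REST consensus, which only 1 of the 2903907 tiles had. No motif of the list contains another.

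**Figure D5:**
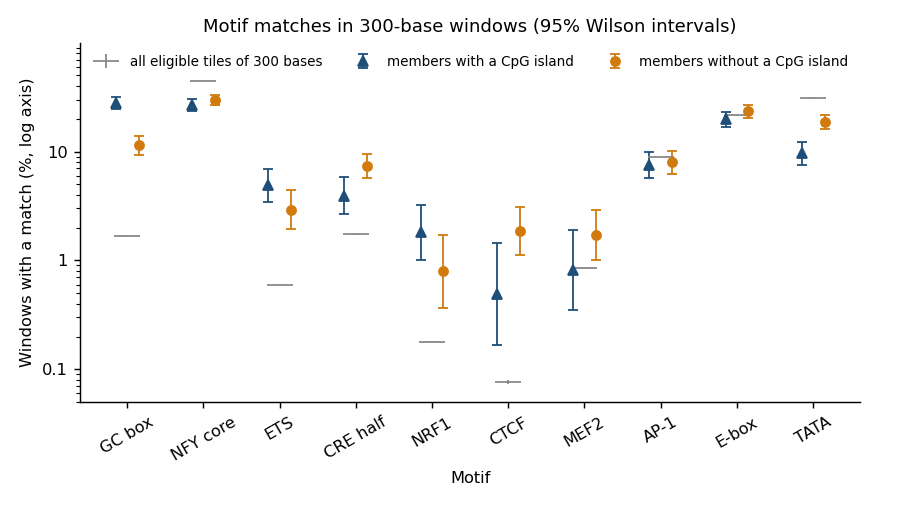
Share of 300-base windows with a match (y axis, %, log scale) for each motif (x axis), in members with and without a CpG island (95% Wilson intervals) and in all eligible tiles. The GC box is at 27.8% and 11.4% against 1.66% of tiles, and CTCF at 0.493% and 1.86% against 0.0767%.

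Repeated sequence was scarce at members, as at the other peaks. The summit window was over 50% repeat-masked in 8 members, or 0.588% (0.298 to 1.16), in 0.568% of the peaks at 5 to 50 kb, 0.252% in start windows and 1.23% in gene bodies, and in 33.2% of tiles. The median masked share was 7.33% in members and 28.0% in tiles. Of the 1361 windows, 1353 consisted mostly of 36-base words found once in the genome, and 1304 entirely of such words. Reads from repeats that cannot be placed may be lost before peaks are called, and its part in these shares was not tested.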

How the data were processed

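Peaks of H3K4me3 were taken from the 4 lists that the authors deposited on mm10, per the labels. Peaks of a pool list or the pooled list came from 1 set of reads and those of the replicated list from both pools, per the text files deposited with the libraries. Of the replicated peaks, 24595 had the same line in the pooled list. The deposited enrichment is a ratio, read as fold over control because those text files list such tracks. Values of −log10 q are the authors' own, as deposited, and their −log10 p was not used. The deposited display score was not used. The depth, the aligner and the caller were not given in the sources used here.

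Members were found with GENCODE M21 (gene bodies, 141862 transcript starts, 58883 of them of coding transcripts), with distances from the nearest peak edge. Sequence, repeat masking and the second annotation came from RefSeq GRCm38.p6. Python 3.11.15 with numpy 2.4.6 and pandas 2.3.3 was used, and the counting code was tested on simulated data. Shares have 95% Wilson intervals and densities 95% Poisson intervals, for counting error only. No p-value was computed, since each pool gave 1 list and peaks are not replicates. Whether the biosamples of the pools were separate animals is not stated, so part of the spread may be technical.

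The members and gene lists were chosen with earlier results of these data known. Regions named were the 10 members of highest enrichment, the 5 widest, the 5 farthest from a coding start, the 3 on each side of the 50 kb limit, the 5 largest groups within 10 kb, the 5 highest without an island, the 3 highest missing from each pool list, and the 5 coding genes nearest to most members. No sequence is printed from chromosome 18, and a region that this rule takes is not reported here. Members at RefSeq mRNA starts, in regulatory elements or in zinc finger clusters, the intervals with most members and genes of the lists were named after their values were seen. The 5 members of highest enrichment without an island included, beside those in the text, the widest member and one near Snrpn.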

Additional observations from a re-analysis of the deposited data

How the results depend on the processing

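The values below left the Wilson interval of the share, moved by 1 SD over the 2 pools or more for a median or density, or by over 1.5 times for the number of members. Beyond 100 kb there were 811 members, with a median width of 469 bases and an island share of 39.6%. The pool J list gave 882 members, 574.5 bases, 4.95-fold, 53.6% with an island, a CpG ratio of 0.526, 13.2% within 10 kb of another and 1.01 per Mb. The pool I list gave 562 bases and 4.75-fold, and the pooled list 465 bases and 3.95-fold. With −log10 q limited to 2 or more, the width was 501 bases and the shares that met pool J, pool I and both were 66.5%, 84.0% and 62.4%. At 5 they were 82.2%, 94.8% and 79.6%, with 587 bases, 5.03-fold, 52.6% with an island, a CpG ratio of 0.526 and 13.8% within 10 kb. At 10 there were 581 members, with 95.3%, 99.5% and 95.01%, 718 bases, 6.36-fold, 61.3% with an island, a ratio of 0.551 and 9.47% within 10 kb. The stricter island definition gave 7.42%. The CpG ratio was 0.405 in windows of 1000 bases and 0.474 over whole peaks. Neighbours counted within 5 kb gave 13.6% and within 50 kb 34.97%. Members merged up to 1000 bases apart had a median width of 503 bases. With coding and long non-coding starts only, 62.5% had a non-coding nearest start. Leaving out members at a RefSeq start, an alternative chosen after seeing the data, gave 475 bases, and leaving out chromosome 18, also chosen afterwards, moved none of the 6 values recomputed for it. The causes of these shifts were not tested, beyond the fewer peaks of the shorter lists.

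Under wider start windows of up to 5000 bases, other gene body and coding start definitions, a limit of 25 kb, distance from the summit, unique sequence only and an overlap of 50%, the recomputed values stayed within those bounds, with 1248 to 1964 members. No paired analysis was possible because each pool gave 1 list, and single libraries could not be left out since both libraries of a pool enter its list. Depth was unknown, so members absent from a pool list were not detectable there at its depth, which does not show that the mark was absent.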

Other observations

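Chemoreceptor genes, which are expressed in sensory epithelia and lie in large clusters, were the nearest coding genes of 7 members, or 0.514% (95% Wilson interval 0.249 to 1.06), and of 1.01% (0.622 to 1.63) of peaks at 5 to 50 kb. They make up 6.94% of coding genes. The strongest lay 73559 bases from Olfr291 with 14.8-fold, and 2 lay near Olfr1324 with 5.44-fold and 11.5-fold. Genes with a Zfp symbol, 1.79% of coding genes, were nearest to 36 members, or 2.65% (1.92 to 3.64), with a median of 4.58-fold. Zfp536 had 5 of them, with 3.95 to 13.6-fold, and Zfp516 had 4 with 3.95 to 13.9-fold. At 5 to 50 kb the Zfp share was 2.46% (1.80 to 3.35).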
